A study of Rattus norvegicus with 10 samples.

Results

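Rat liver taken 24 h after a burn injury was compared with rat liver taken 4 h after the same kind of injury. The comparison was made from the study's titles: both arrays titled 24 h against both arrays titled 4 h, 4 of the 10 oligonucleotide arrays of the series. The other arrays held total RNA of sham-treated control liver, listed at 0 h (2 arrays), and of liver at 1 h and 8 h after the burn (2 arrays each), and they entered through the estimate of spread between arrays of one group and through the floor and the filter on low signal, which were set over all arrays. All 10 arrays are labelled rat liver, and array 2 of a group is the one its title numbers so. Strain, age, sex, the size of the burn, feeding, the time of day of collection and any pooling of animals are not given in the sources used here, nor whether the pair of arrays in a group stems from separate animals. Every p-value below therefore sets a difference against array-to-array spread, some of which may be technical, and cannot be carried over to animals.

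The liver answers an injury elsewhere in the body with the acute phase response, in which hepatocytes secrete inhibitors, carriers and clotting proteins under interleukin and glucocorticoid control. In the same hours stress hormones and lack of food drive enzymes that break down amino acids, make glucose and spare it from oxidation. Liver genes also follow a daily rhythm set by a transcriptional clock, and many enzymes of bile acid, steroid and drug metabolism are tied to that rhythm and to growth hormone.

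The deposited values are scaled intensities, with a trimmed mean (2% of values off each end) of 500.9 to 501.0 on every array and an array median of 100.1 to 131.1. The array holds 8799 probe sets, of which 59 are controls, and 5254 probe sets passed a filter on low signal and were tested. These carry 1 gene symbol in 4328 cases (3148 genes), several symbols in 243 and none in the table used in 683. Arrays of one group correlated at r = 0.9548 for the 24 h pair and 0.953 for the 4 h pair on the log2 scale, and the 4 cross pairs of 4 h and 24 h arrays at 0.9178 to 0.9285. With 2 arrays against 2, an exact permutation test of a single value cannot go below p = 0.333, so calls rest on limma's moderated test across all probe sets and on a spread estimated over all 5 groups.

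By that test 301 probe sets (5.73% of those tested) differed between 24 h and 4 h at an adjusted p below 0.05, here named called. Of these, 117 (2.23%) were higher at 24 h and 184 (3.5%) were lower, with a median log2 difference of 1.35 and -1.45. They stood for 73 and 133 named genes. In all 301 the values of the 24 h arrays lay entirely above or below those of the 4 h arrays, which was also the case, called or not, for 24.2% of tested probe sets in the higher and 25.4% in the lower direction. Differences of 2-fold or more made up 228 of the calls and of 4-fold or more 68. Of 87 named probe sets called, 38 stayed called with each of the 10 arrays left out in turn. Leaving out 1 of the 4 arrays compared brought the calls to 120 (4 h array 1), 134 (4 h array 2), 138 (24 h array 1) or 121 (24 h array 2), and the named calls lost in this way are given with the genes below. Gene lists below count each gene once, on the probe set with the highest mean. Counted so, 58 of all 3148 genes rose and 106 fell (5.21% called), and 775 and 793 had the arrays of the times apart upward and downward. The lists of clotting, glycolysis, fat oxidation, conjugation, endoplasmic reticulum, proteasome, cell growth and transport genes had 3.7% to 7.4% called, near this background. For scale, 544 probe sets (10.4%) differed between 24 h and sham and 230 (4.38%) between 4 h and sham by the same test.

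The split between higher and lower calls depended on the scaling. The 9 bacterial and phage spike-in probe sets, targets added to the sample during preparation, were all brighter at 24 h than at 4 h, by a median of 0.66 on the log2 scale (0.27 to 0.93). Their geometric mean intensity was 3010 and 3456 on the 4 h arrays and 5318 and 4938 on the 24 h arrays. In the deposited scaling 38.9% of the calls were higher at 24 h. With each array scaled to its spike-ins in place of its overall signal, the median of all probe sets moved by -0.67, 932 probe sets were called and 4.2% of them were higher. None of the 301 calls changed sign, but 16 named ones that rose (those of Bckdhb, Cyp2a2, Cyp2b2, Cyp2c11, Dnaja1, Egr1, Hsd17b2, Hspa5, one of the Ier3 probe sets, Kng2, Msmo1, Orm1, Pnlip, Psmc4, Rdh16 and Slc6a9) no longer passed. All differences below are relative to the overall signal of each array.

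**Figure D1:**
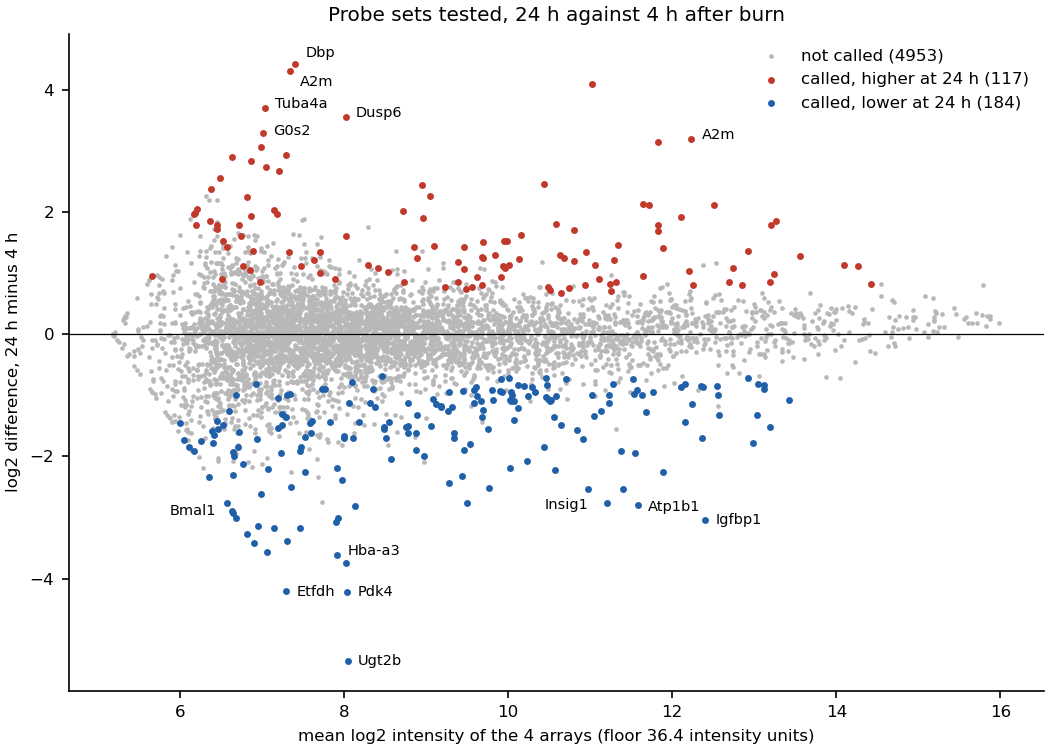
Each point is 1 of 5254 probe sets. The x axis gives its mean log2 intensity over the 4 arrays and the y axis its log2 difference, 24 h minus 4 h; red points were called higher (117), blue points called lower (184) and grey points were not called, and Dbp and Ugt2b lie at the upper and lower edge of the named ones on this floored scale.

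Among clock genes Dbp rose at least 21.6-fold and Bmal1 fell at least 7.43-fold. Dbp, a clock-controlled transcription factor whose mRNA swings strongly over the day in liver, read 31.2 and 16.1 on the 4 h arrays, both below the measuring floor of 36.4 intensity units (the typical 25th percentile of an array, to which lower values were raised), and 932.5 and 663 at 24 h. It was at least 21.6-fold higher at 24 h (limma adjusted p = 0.000325), and sham livers read 1008 and 1463. The second Dbp probe set also lay below the floor at 4 h (34.2 and 32.6) and rose at least 7.48-fold, to 291 and 254. Bmal1, the activator at the core of the clock, ran opposite: it read 295 and 248 at 4 h and 16.0 and 19.5 at 24 h, at least 7.43-fold lower (adjusted p = 0.00026). Both sham arrays, both 1 h arrays and both 8 h arrays of Bmal1 were below the floor as well, so 4 h was the single time with a measurable level. Bmal1 thus passed the filter on low signal through the 4 h arrays alone, and its adjusted p is no independent support. The log2 differences from sham of Dbp were -5.06 (adjusted p = 0.000213) at 4 h and -0.63 (adjusted p = 0.212) at 24 h, the first being a bound, since both 4 h arrays were under the floor. These and all differences from sham below share the same sham arrays. Of 7 tested clock genes (28.6% called, against 5.21% of all genes) the other 5 were not called: Nr1d1 differed by -0.23 (adjusted p = 0.528), Hlf by 0.5 and Nr1d2 by -0.29. Both clock calls held with each single array left out.

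The start of the Bmal1 gene is shown because the core clock acts on it through the half-site AGGTCA, which binds the nuclear receptors of the Rev-erb and Ror families. The window is the 250 bases before the gene's start in RefSeq's rat assembly GRCr8, chr1:176766078-176766327 on the + strand, with the match in capitals.
Bmal1: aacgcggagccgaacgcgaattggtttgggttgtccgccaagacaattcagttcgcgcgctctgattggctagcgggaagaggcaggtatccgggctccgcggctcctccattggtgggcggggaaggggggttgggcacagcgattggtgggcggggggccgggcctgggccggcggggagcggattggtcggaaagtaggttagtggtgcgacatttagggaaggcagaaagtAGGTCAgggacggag
The half-site begins 15 bases before the start. It was searched on both strands (AGGTCA or TGACCT) and occurs in 14.06% of 33469 RefSeq windows of the same length. The E-box CACGTG, to which the Bmal1 protein binds, was in neither the Bmal1 nor the Dbp window and is in 5.59% of all windows, and the half-site was not in the Dbp window. A match is a description of the sequence and says nothing about binding in these livers.

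Genes that glucocorticoids induce in liver fell where they were called. Of 13 tested, 7 fell and none rose, the list's median was -1.07, and 53.8% were called against 5.21% of all 3148 genes, whose median was 0. This and the other lists were written with earlier results of these data known, so such shares are descriptions and not tests. Pdk4, the kinase that shuts off pyruvate dehydrogenase and so spares glucose, read 1247 and 1031 at 4 h and 46.1 and 80.5 at 24 h, 18.6-fold lower (log2 -4.22 ± 0.32 SE, the standard error, adjusted p = 0.000798). Igfbp1, a secreted binding protein that restrains insulin-like growth factors, was among the brightest of these at 15098.5 and 15906 and fell to 1903 and 1855 (log2 -3.04 ± 0.15 SE, adjusted p = 0.000254). The replicate arrays of Igfbp1 lay far closer to each other than to the other time.

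Against sham, Igfbp1 stood at 1.39 (adjusted p = 0.00271) at 4 h and -1.65 (adjusted p = 0.00108) at 24 h, above at 4 h and below at 24 h. Dusp1, a phosphatase that switches off MAP kinases, was already below sham at 4 h and fell further. On one probe set it read 2808 and 2538 in sham, 688 and 704 at 4 h and 74.0 and 92.1 at 24 h (log2 -3.08 ± 0.19 SE, adjusted p = 0.000314). The 2 other Dusp1 probe sets differed by -3.14 and -1.49, both called. Klf9, a transcription factor induced by glucocorticoids and thyroid hormone, read 2164 and 2015 at 4 h and 372 and 356 at 24 h, with sham between them at 1051 and 952.5 (log2 -2.52 ± 0.17 SE, adjusted p = 0.0005).

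Tat, the tyrosine aminotransferase that glucocorticoids classically induce, read 15003 and 14988 at 4 h and 4453 and 4285 at 24 h (log2 -1.78 ± 0.14 SE, adjusted p = 0.000834). Its 24 h values lay below the sham values of 6053 and 6475.5, a difference that was not called (-0.52, adjusted p = 0.0616). Pck1, which commits carbon to glucose synthesis, went from 14929 and 17049 to 7671 and 7485 (log2 -1.07 ± 0.15 SE). Sds, serine dehydratase, went from 16069 and 11003 to 5051 and 5529 (log2 -1.33 ± 0.23 SE). Not called were Got1, Sgk1, Tdo2, Cdkn1a, Glul and Cebpd, of which Tdo2 was higher on both 24 h arrays (0.36, adjusted p = 0.292). Pck1 (adjusted p up to 0.0605) was no longer called without 4 h array 2 or either 24 h array. Sds (adjusted p up to 0.106) lost the call without 4 h array 1 or either 24 h array.

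**Figure D2:**
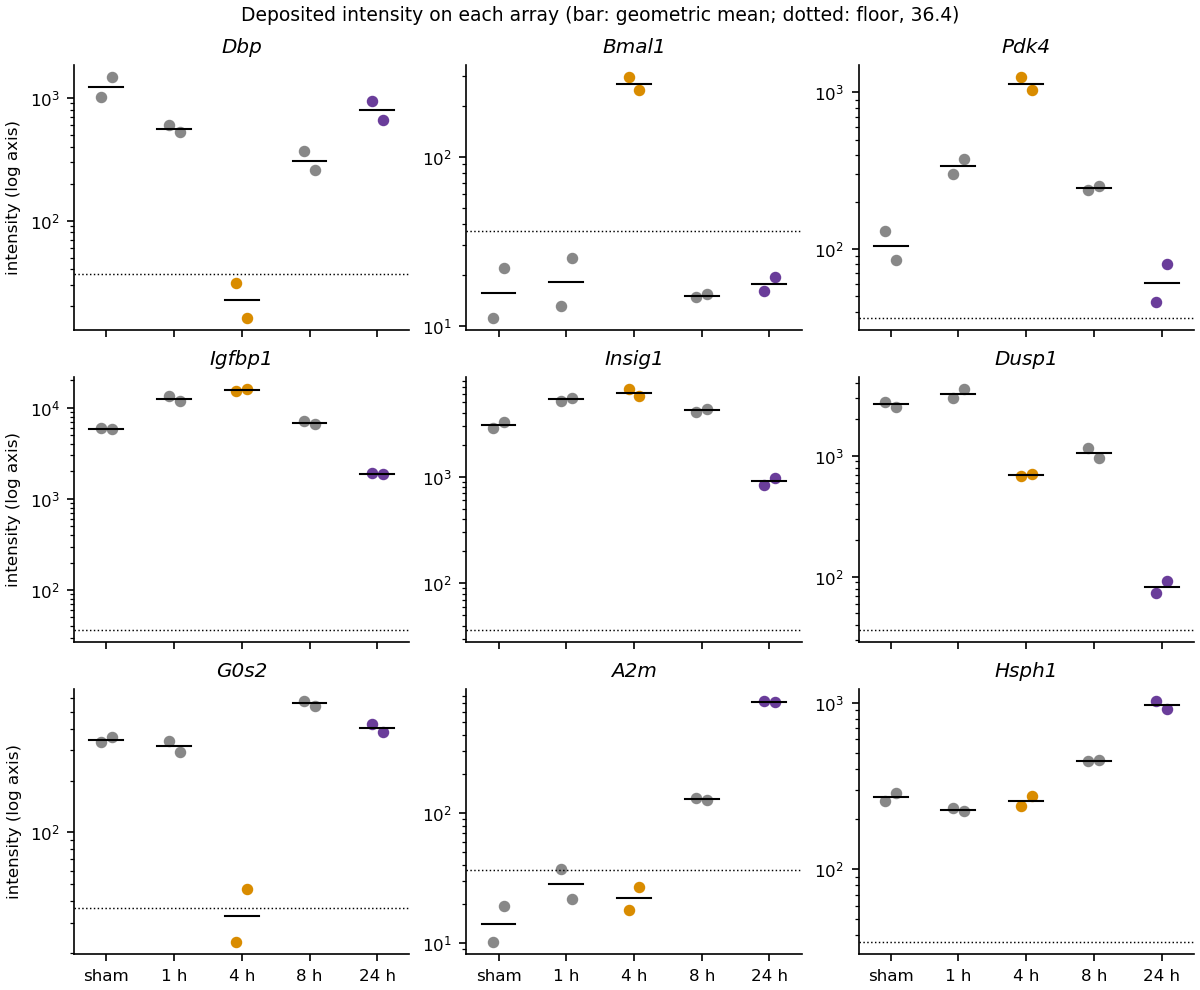
Intensity on a log axis for 9 genes on each of the 10 arrays, by group on the x axis; points are arrays, bars geometric means and the dotted line the floor of 36.4. The 4 h arrays (orange) and 24 h arrays (purple) do not overlap in any panel: Dbp, G0s2, A2m and Hsph1 were higher at 24 h, and Bmal1, Pdk4, Igfbp1, Insig1 and Dusp1 were lower.

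Enzymes of amino acid breakdown mostly fell where they were called. Of 36 tested 10 fell and 1 rose (30.6% called, against 5.21% of all genes), with a median of -0.49. In 23 both 24 h arrays lay below both 4 h arrays and in 4 above, against 793 and 775 of all 3148 genes. Agxt, which detoxifies glyoxylate, read 8232 and 8793 at 4 h and 4141 and 4406 at 24 h (log2 -0.99 ± 0.16 SE, adjusted p = 0.0149). It had been above the sham level of 4639 and 4458 at 4 h. Other Agxt probe sets were called at -1.4 and -1.0. Those at -0.91, -0.55 and -0.23 were not called, the last with overlapping arrays. Dmgdh, dimethylglycine dehydrogenase of the choline to glycine route, fell from 781 and 787 to 390.3 and 360.4 (log2 -1.06 ± 0.18 SE). Agxt (adjusted p up to 0.0871) and Dmgdh (adjusted p up to 0.103) were no longer called without any one of the 4 arrays compared.

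Beside these, Tat and Sds, the other 6 that fell were Cth and Cdo1 of cysteine metabolism, Mat1a and Gnmt of the methionine cycle, and Kmo and Kynu of tryptophan breakdown, with log2 differences of -1.02 to -0.72. The enzyme that rose was Bckdhb, a subunit of the dehydrogenase of branched-chain amino acids, from 766 and 697 to 1801 and 1634 (log2 1.23 ± 0.21 SE, adjusted p = 0.0175). Its partner subunit Bckdha differed by 0.09. None of the 5 urea cycle enzymes was called on its brightest probe set: Otc differed by -0.35 and Ass1 by -0.4, and Cps1 was called on another probe set alone (-0.72, adjusted p = 0.0351). Bckdhb (adjusted p up to 0.101) was no longer called without any one of the 4 arrays compared.

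Several regulators of glucose use fell. In the list of glucose synthesis and export 3 of 10 fell and none rose, a larger share than the 5.21% called of all genes. Of these, Pdk4 and Pck1 were already counted among the glucocorticoid-induced genes. The other was Pdk2, a second pyruvate dehydrogenase kinase, which read 1983 and 2174.5 at 4 h and 1107 and 898 at 24 h (log2 -1.06 ± 0.16 SE, adjusted p = 0.0137). Pdp2, the phosphatase that opposes the kinases Pdk2 and Pdk4, fell as well. It read 503 and 417.5 at 4 h and 26.5 and 41.5 at 24 h, where 1 array was at the floor (log2 -3.56 ± 0.59 SE, adjusted p = 0.0167), and its second probe set fell by 1.7 (adjusted p = 0.00261). Pdp2 (adjusted p up to 0.0905) was no longer called without any one of the 4 arrays compared. Pdk2 (adjusted p up to 0.0794) lost the call without either 4 h array or 24 h array 2.

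Kinase and phosphatase of the same complex thus both read lower. Of 21 genes of glycolysis and glycogen 1 was called: Gckr, the protein that holds glucokinase in the nucleus, went from 1953 and 1679 to 1089.8 and 1112 (log2 -0.72 ± 0.15 SE). Pfkfb2, which makes the activator of glycolysis, was next at 1.56 (adjusted p = 0.214). Pgk1, a glycolytic kinase, fell by 2.07 on one probe set (adjusted p = 0.00291), picked after its values were seen, and differed by -0.2 on the other. Gckr (adjusted p up to 0.152) was no longer called without any one of the 4 arrays compared, or without either sham array, either 1 h array or either 8 h array.

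Of 17 genes of growth hormone, insulin and insulin-like growth factor signalling 3 fell and none rose (17.6% called, against 5.21% of all genes). In 10 the 24 h arrays lay below the 4 h arrays, against 793 of all 3148 genes. Beside Igfbp1, Socs2, the feedback inhibitor of growth hormone signalling, read 267 and 186.5 at 4 h and 38.8 and 53.0 at 24 h, against 337 and 323 in sham (log2 -2.3 ± 0.26 SE, adjusted p = 0.0038). Igf1, the hormone the liver secretes under growth hormone, fell from 11053 and 11419 to 6186 and 6592 (log2 -0.81 ± 0.17 SE, adjusted p = 0.0351). Of 4 further Igf1 probe sets 1 was called (-1.12, adjusted p = 0.0432) and the others lay between -0.92 and -0.46. Igf1 (adjusted p up to 0.161) was no longer called without any one of the 4 arrays compared, or without either 1 h array or either 8 h array.

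The receptor genes did not pass on their brightest probe sets: Ghr differed by -0.02 and Insr by -0.21. On a dimmer probe set Igf1r rose by 1.85 (adjusted p = 0.0205), and Igfals, which stabilises circulating Igf1, fell by 0.92 (adjusted p = 0.02), both named after their values were seen. That Igf1r probe set passed the filter on low signal through the 24 h arrays alone, so its adjusted p is no independent support.

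Sterol and fat metabolism was mixed. Insig1, which holds the sterol sensor in the endoplasmic reticulum and so restrains cholesterol synthesis, read 6622 and 5719 at 4 h and 843 and 985 at 24 h (log2 -2.76 ± 0.17 SE, adjusted p = 0.000314). Its second probe set differed by -1.94 (adjusted p = 0.003). Msmo1, a sterol methyl oxidase of the cholesterol pathway, went the other way, from 1334 and 742 to 3482 and 3004 (log2 1.7 ± 0.3 SE), with sham at 5103 and 4641. Msmo1 (adjusted p up to 0.12) was no longer called without 4 h array 2 or either 24 h array.

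These were the calls among 15 cholesterol genes on their brightest probe sets (13.3%, against 5.21% of all genes), with a median of -0.22. Dhcr7, the last enzyme of the pathway, was called on another probe set than its brightest (-1.07, adjusted p = 0.0156). Of 16 genes of fat synthesis 2 fell and none rose (12.5% called, against 5.21% of all genes). Acsl1, which activates long-chain fatty acids, fell from 4341 and 3981 to 2395 and 2056.5. Scd, which makes monounsaturated fatty acids, fell from 3241.5 and 3349.7 to 1924 and 1839. The 3 other Acsl1 probe sets also fell, with log2 differences of -1.26 and -0.95 and, on one whose 24 h arrays were both at the floor, at least 7.64-fold. Fasn and Srebf1 differed by 0.35 and 0.02 and were not called, and Me1, which supplies reducing power for fat synthesis, was called on another probe set (-0.89, adjusted p = 0.0351). Scd (adjusted p up to 0.18) was no longer called without any one of the 4 arrays compared, or without either 1 h array or either 8 h array. The brightest Acsl1 probe set (adjusted p up to 0.141) and the dimmest (adjusted p up to 0.155) lost the call without any one of the 4 arrays compared.

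In fat oxidation 1 of 27 genes was called on its brightest probe set: Bdh1, which makes the ketone body 3-hydroxybutyrate, fell from 1698 and 1082 to 376 and 353 (log2 -1.89 ± 0.28 SE, adjusted p = 0.0111). The carnitine palmitoyltransferase Cpt1a differed by 0.4 and the acyl-CoA dehydrogenase Acadm by -0.16. On other probe sets, named after their values were seen, the fatty acid carrier Cd36 fell at least 5.07-fold to below the floor (adjusted p = 0.00864) and the peroxisome gene Pex11a fell by 1.45 (adjusted p = 0.00283). G0s2, an inhibitor of the main triglyceride lipase, was low at 4 h and back near sham at 24 h. It read 334 and 358 in sham, 23.1 and 46.7 at 4 h and 427 and 381.5 at 24 h (log2 3.29 ± 0.18 SE, adjusted p = 0.00026). Bdh1 (adjusted p up to 0.0677) was no longer called without 4 h array 1 or either 24 h array.

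Of 18 genes of bile acid synthesis and transport 3 fell and none rose, and 12 had both 24 h arrays below both 4 h arrays. That is 16.7% called, against 5.21% of all genes, and of all 3148 genes 793 had the arrays apart downward. Cyp7a1, the rate-limiting enzyme of bile acid synthesis, read 1406 and 1709 at 4 h and 294 and 326 at 24 h (log2 -2.32 ± 0.18 SE, adjusted p = 0.000813); sham read 2289 and 2309 and the 8 h arrays 4701 and 3833. Nr0b2, the receptor SHP that represses Cyp7a1, fell too. Its 3 probe sets read 1178 and 1088, 700.2 and 684, and 359 and 425 at 4 h, and 396.5 and 342.5, 49.9 and 147, and 26.4 and 32.6 at 24 h.

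Their log2 differences were -1.62, -3.01 and, with both 24 h arrays at the floor, at least 10.7-fold lower (adjusted p = 0.0119, 0.0111 and 0.0018). Akr1d1, a reductase of both bile acid and steroid hormone metabolism, fell from 7985 and 8117 to 4145 and 4839 (log2 -0.85 ± 0.16 SE) and differed by -2.23 on its second probe set. The bile acid receptor Nr1h4 differed by -0.64 (adjusted p = 0.154) and the export pump Abcb11 by -0.41. Akr1d1 (adjusted p up to 0.146) was no longer called without any one of the 4 arrays compared, or without either 1 h array. The first Nr0b2 probe set (adjusted p up to 0.0765) lost the call without any one of the 4 arrays compared. The second (adjusted p up to 0.0682) lost the call without either 4 h array.

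Among drug and steroid metabolising enzymes there was no common direction. Of 28 cytochrome P450 genes and reductases 3 rose and 2 fell (17.9% called, against 5.21% of all genes). Cyp2b2, an inducible enzyme, was at 2899 and 3529.7 in sham, 12926 and 13929 at 4 h and 30009.9 and 28172 at 24 h (log2 1.12 ± 0.16 SE, adjusted p = 0.0111). Cyp2c11, the male-specific steroid hydroxylase, rose from 3675 and 3709.7 to 6733 and 6135, and Cyp2a2 from 1994 and 1843 to 3235 and 3027 (log2 0.8 and 0.71). Cyp2a1 and the arachidonic acid epoxygenase Cyp2j3 fell, with log2 differences of -0.9 and -0.93. On other probe sets Cyp2c13 was called at 0.81 and the reductase Cyb5r3 at -0.83 and -1.26. Cyp2a2 (adjusted p up to 0.198) was no longer called without any one of the 4 arrays compared, or without either sham array, either 1 h array or either 8 h array. Cyp2c11 (adjusted p up to 0.15) and Cyp2j3 (adjusted p up to 0.145) lost the call without any one of the 4 arrays compared, or without either sham array or either 1 h array. Cyp2a1 (adjusted p up to 0.177) lost the call without any one of the 4 arrays compared, or without either 1 h array or either 8 h array. Cyp2b2 (adjusted p up to 0.0709) lost the call without any one of the 4 arrays compared.

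Close paralogs in these subfamilies, and in the Ugt2b, Rdh and globin families below, can share probe sequence, so the member behind such a value is uncertain. In conjugation, 1 of 34 genes rose and 1 fell, and the epoxide hydrolase Ephx2 was called on a further probe set (-0.79). Sult1e1, the sulfotransferase that inactivates oestrogens, read 2262 and 2266 at 4 h and 8935 and 8201 at 24 h, with sham between at 4482 and 4634 (log2 1.92 ± 0.14 SE, adjusted p = 0.000731). Its other probe set, 2318 and 1301 against 3507 and 3322, was not called (adjusted p = 0.168).

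The probe set listed as Ugt2b, a glucuronosyltransferase, fell steeply, from 2119 and 1349 at 4 h to 41.8 and 40.9 at 24 h, close to the floor (40.9-fold, log2 -5.35 ± 0.61 SE, adjusted p = 0.00386). A second probe set of the same symbol fell 2.13-fold, from 1574 and 1569 to 683 and 795, and a further one did not differ beyond its error (0.12 ± 0.28 SE). The sizes under this one symbol thus differ widely. The second Ugt2b probe set (adjusted p up to 0.065) was no longer called without either 4 h array or 24 h array 1.

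Of 17 steroid and retinol dehydrogenases 3 rose and 2 fell (29.4% called, against 5.21% of all genes). Hsd3b5, a male-specific steroid dehydrogenase, rose from 233 and 188 to 852 and 841 (log2 2.02 ± 0.25 SE, adjusted p = 0.00524). Hsd17b2, which inactivates oestradiol and testosterone, rose from 598 and 810.2 to 1540.4 and 1501, still far under the sham level of 7878 and 8249. The retinol dehydrogenases split: Rdh16 rose from 552 and 432 to 1268 and 1536 and Rdh7 fell from 373.5 and 315 to 93.9 and 89.0. Rdh16 (adjusted p up to 0.163) was no longer called without any one of the 4 arrays compared, or without either sham array. Hsd17b2 (adjusted p up to 0.0845) lost the call without 4 h array 1 or either 24 h array.

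Heme genes added 1 call of 8 (12.5%, against 5.21% of all genes). Alas1, the first enzyme of heme synthesis, read 1059 and 1291.5 in sham, 5257 and 5106 at 4 h and 1240.3 and 1507 at 24 h (log2 -1.92 ± 0.23 SE, adjusted p = 0.00502), and its second probe set fell by 2.54. Hmox1, which breaks heme down, read 4919 and 5304 at 4 h and 2858 and 2825 at 24 h, both above sham at 402 and 551. Its difference between the times was not called (log2 -0.85 ± 0.24 SE, adjusted p = 0.105).

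Of 22 positive acute phase proteins 3 rose and 1 fell (18.2% called, against 5.21% of all genes), with a median of 0.28. A2m, alpha-2-macroglobulin, the main acute phase protease inhibitor of the rat, rose on all 5 tested probe sets. The brightest read 324 and 969.5 in sham, 1249 and 2024 at 4 h and 14747 and 14465 at 24 h (log2 3.2 ± 0.58 SE, adjusted p = 0.0226). A dimmer one was below the floor at 4 h (17.9 and 26.9) and read 724 and 718 at 24 h, at least 19.8-fold higher with the smallest adjusted p of any named gene (3.22e-05). The other 3 rose by 1.53 to 2.46. The brightest A2m probe set (adjusted p up to 0.117) was no longer called without any one of the 4 arrays compared.

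Orm1, alpha-1-acid glycoprotein, read 5061 and 4639 at 4 h, 40689 and 44442 at 8 h and 11753 and 13124 at 24 h (log2 1.36 ± 0.17 SE, 24 h minus 4 h, adjusted p = 0.00565), so its 24 h level lay under the level of the 8 h arrays. Kng2, T-kininogen, followed the same order with 15289.6 and 17905.5 at 4 h, 51715 and 59728 at 8 h and 27759.5 and 30952 at 24 h (log2 0.83 ± 0.16 SE). Serpina3m, a serine protease inhibitor, fell from 4194 and 4158 to 1900.2 and 2374. The fibrinogen chain Fgb, at 19887 and 18691 at 4 h and 28923.5 and 30804 at 24 h, missed the threshold (0.63, adjusted p = 0.0581), as did Fga and Fgg at 0.56 and 0.46. Kng2 (adjusted p up to 0.163) was no longer called without any one of the 4 arrays compared, or without either sham array or either 1 h array. Serpina3m (adjusted p up to 0.112) lost the call without either 4 h array or 24 h array 1.

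The neutrophil gelatinase-associated lipocalin Lcn2 differed by 1.87 with an adjusted p of 0.0876, and haptoglobin Hp by 0.28. Of 14 complement genes, Cfd, the protease adipsin that starts the alternative pathway, rose and Mbl2, a mannose-binding lectin, fell. That is 14.3% called, against 5.21% of all genes. Cfd read 291 and 189 in sham, 46.0 and 56.8 at 4 h and 390.3 and 298 at 24 h (log2 2.74 ± 0.28 SE, adjusted p = 0.00249). Cfd also stands in the list of muscle and adipose markers, where it was the single call of 7 (14.3%, against 5.21% of all genes).

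Mbl2 went from 3184 and 3109.7 to 1227 and 921 (log2 -1.57 ± 0.23 SE). Of 14 clotting genes 1 was called: Plg, plasminogen, fell from 6891 and 7499 to 3260.5 and 3276 (log2 -1.14 ± 0.14 SE, adjusted p = 0.00594). Of 22 negative acute phase and carrier proteins 2 fell, Igf1 (counted above) and Serpina6 (9.1% called, against 5.21% of all genes). Serpina6, the corticosteroid-binding globulin, went from 6924 and 7036 to 3549.9 and 4246 (log2 -0.85 ± 0.17 SE). Albumin, transthyretin and the apolipoprotein Apoa1 differed by 0.3, 0.16 and 0.17 and were not called. Serpina6 (adjusted p up to 0.163) was no longer called without any one of the 4 arrays compared, or without either 1 h array or either 8 h array. Mbl2 (adjusted p up to 0.0661) lost the call without either 4 h array or 24 h array 2.

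**Figure D3:**
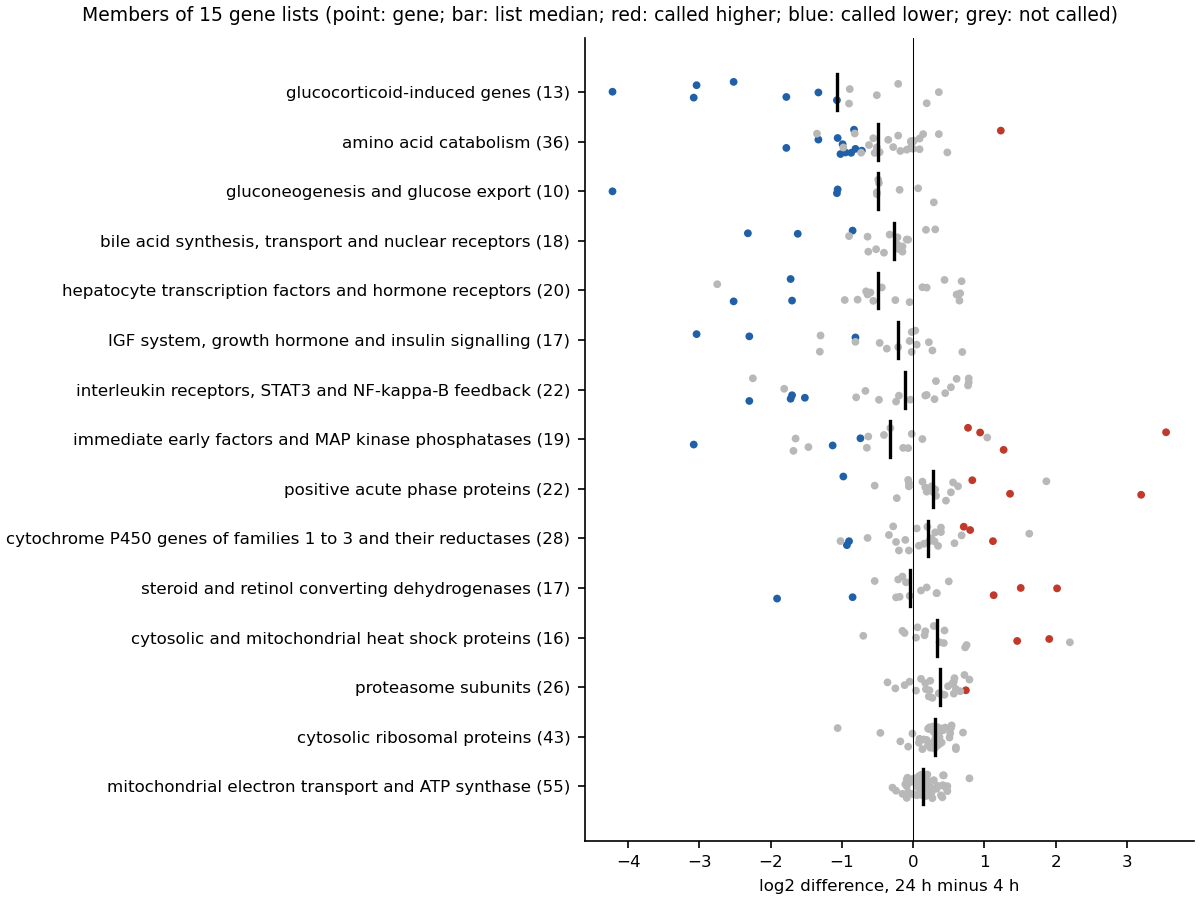
The log2 difference, 24 h minus 4 h, of every tested gene (brightest probe set) in 15 gene lists, with the number tested after each name; black bars are medians, red points were called higher, blue points lower and grey points were not called. The glucocorticoid list has the lowest median at -1.07 and the proteasome list the highest at 0.37.

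Regulators of signalling moved in both directions. Of 19 immediate early genes and MAP kinase phosphatases 4 rose and 3 fell (36.8% called, against 5.21% of all genes). Dusp6, a phosphatase specific for ERK, read 782 and 655 in sham, 51.2 and 112 at 4 h and 945 and 837 at 24 h (log2 3.55 ± 0.51 SE, adjusted p = 0.0106), so the 2 phosphatases Dusp6 and Dusp1 went opposite ways. The second Dusp6 probe set was higher by 1.89 and not called (adjusted p = 0.159). Dusp6 (adjusted p up to 0.0646) was no longer called without 4 h array 1 or either 24 h array.

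Ier3, an early gene that modulates survival signalling, rose on both probe sets, from 247 and 236 to 1253 and 1069 on the one with the larger difference (log2 2.26 ± 0.17 SE, adjusted p = 0.000807). Egr1, an early zinc finger factor, rose by 0.77 on its brightest probe set, and its 3 other probe sets were not called (-0.11 to 1.09). Junb rose by 0.94 and Gadd45a fell by 0.74. Zfp36, which destabilises cytokine mRNA, fell from 1283 and 1003.5 to 557 and 485 (log2 -1.13 ± 0.19 SE). Egr1 (adjusted p up to 0.181) was no longer called without any one of the 4 arrays compared, or without either sham array, either 1 h array or either 8 h array. The other Ier3 probe set (adjusted p up to 0.122) lost the call without any one of the 4 arrays compared. Zfp36 (adjusted p up to 0.102) lost the call without 4 h array 1 or either 24 h array.

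Of 22 genes of interleukin and NF-kappa-B feedback 4 fell and none rose (18.2% called, against 5.21% of all genes): Cebpa, Cebpb, Socs2 and Nfkbia. Socs2 was already counted above, and Cebpa and Cebpb are counted again in a list below. Cebpa, a factor of the differentiated hepatocyte, read 668 and 649 at 4 h and 213.5 and 194 at 24 h, against 739 and 849 in sham (log2 -1.7 ± 0.16 SE, adjusted p = 0.00162). Cebpb, its relative that drives acute phase genes, read 3365 and 3649.7 at 4 h and 1074 and 1057 at 24 h (log2 -1.72 ± 0.17 SE, adjusted p = 0.00215). Both pairs of arrays lay well apart.

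Against sham, Cebpb was 1.02 (adjusted p = 0.019) at 4 h and -0.7 (adjusted p = 0.047) at 24 h. Nfkbia, the inhibitor of NF-kappa-B, fell from 625 and 593 to 181.5 and 248 (log2 -1.52 ± 0.27 SE). Stat3 and Socs3, a signal carrier of interleukin 6 and its inhibitor, differed by -0.48 ± 0.47 SE and 0.53 ± 0.78 SE and were not called. Il1r1, the interleukin 1 receptor, fell by 2.38 on one of 3 probe sets, named after its values were seen (adjusted p = 0.00155), and the others were not called. That probe set passed the filter on low signal through the 4 h arrays alone. Nfkbia (adjusted p up to 0.114) was no longer called without any one of the 4 arrays compared.

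Of 20 hepatocyte transcription factors and hormone receptors 3 fell and none rose, a larger share than the 5.21% called of all genes. These were Klf9, Cebpa and Cebpb, all of them counted in lists above, and the list median was -0.5. Hnf4a, a central hepatocyte factor, differed by -0.25 (adjusted p = 0.564).

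Chaperone genes moved upward where they were called. Of 16 cytosolic and mitochondrial heat shock proteins 2 rose and none fell (12.5% called, against 5.21% of all genes). In 9 both 24 h arrays lay above both 4 h arrays and in none below, against 775 and 793 of all 3148 genes. Hsph1, a partner of the chaperone Hsp70, read 257 and 288 in sham, 239.5 and 275 at 4 h, 447 and 449 at 8 h and 1015 and 918 at 24 h (log2 1.91 ± 0.16 SE, adjusted p = 0.000938). The 4 h arrays lay at the sham level and the 24 h arrays far above it. Dnaja1, a cochaperone, rose from 1683 and 1453 to 4407 and 4209 (log2 1.46 ± 0.26 SE, adjusted p = 0.0205). On other probe sets the cochaperone Dnaja2 was called at 1.24 and 1.08 and the heat shock factor Hsf1 at 1.35. Dnaja1 (adjusted p up to 0.12) was no longer called without any one of the 4 arrays compared.

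The window before the Hsph1 gene is shown because heat shock factor binds paired repeats of the letters GAA. The pairs GAANNTTC and TTCNNGAA were searched, a choice made after the values were seen. The sequence covers the 250 bases before the start in RefSeq's GRCr8, chr12:10427118-10427367 on the + strand, with matches in capitals.
Hsph1: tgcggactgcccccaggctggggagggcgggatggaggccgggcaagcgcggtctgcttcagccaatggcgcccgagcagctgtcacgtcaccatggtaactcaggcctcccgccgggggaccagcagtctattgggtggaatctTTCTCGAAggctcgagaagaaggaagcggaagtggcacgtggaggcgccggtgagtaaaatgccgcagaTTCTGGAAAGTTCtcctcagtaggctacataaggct
Matches begin 105, 36 and 31 bases before the start, and those at 36 and 31 overlap. Such a pair occurs in 13.55% of the 33469 windows, and the Dnaja1 window holds 1, beginning 181 bases before its start. As for Bmal1, a match says nothing about binding in these livers.

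In the endoplasmic reticulum 1 of 17 genes was called: Hspa5, the chaperone BiP, rose from 3523 and 3058 to 7477 and 6075 (log2 1.04 ± 0.21 SE, adjusted p = 0.0315). Pdia4, a disulfide isomerase, was next at 0.54 (adjusted p = 0.0975) and Calr and Canx differed by -0.12 and 0.08. Of 26 proteasome genes 1 was called: Psmc4, an ATPase of its cap, rose from 552.5 and 559 to 895.5 and 963 (log2 0.74 ± 0.15 SE). Yet 18 of the 26 had the 24 h arrays above the 4 h arrays and 1 below, against 775 and 793 of all 3148 genes. The median of the 26 was 0.37. The core subunit Psmb4 was called at 0.96 on another probe set. Psmc4 (adjusted p up to 0.152) was no longer called without any one of the 4 arrays compared, or without either sham array, either 1 h array or either 8 h array. Hspa5 (adjusted p up to 0.161) lost the call without any one of the 4 arrays compared, or without either sham array or either 8 h array.

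Cytosolic ribosomal proteins showed small differences, mostly of one sign: none of 43 was called, 33 had the 24 h arrays above and 2 below, and the median was 0.3. Over all 3148 genes 775 had them above and 793 below. Rpl23 stood nearest to the threshold at 6851 and 7563 at 4 h and 11092 and 10764 at 24 h (0.6, adjusted p = 0.0636). The sign of such list medians rests on the scaling: with spike-in scaling the medians were -0.37 for the ribosome, -0.29 for the proteasome and -0.34 for heat shock proteins, each above the -0.67 of all probe sets. For 55 genes of mitochondrial electron transport and ATP synthase none was called and the median was 0.14. Of 21 antioxidant genes none was called on its brightest probe set, and thioredoxin reductase Txnrd1 rose on another, from 653 and 680 to 1509 and 1362 (1.11, adjusted p = 0.00837). Gclm and Gclc, the subunits that make glutathione's precursor, differed by -0.69 (adjusted p = 0.0507) and 0.88 (adjusted p = 0.0713).

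Among 94 transporters and pumps 5 fell and 2 rose, 7.4% called against 5.21% of all genes. Atp1b1, the beta subunit of the sodium pump, stood out at 4 h: it read 656 and 751 in sham, 7423 and 8808.5 at 4 h, 856 and 782 at 8 h and 1108 and 1222.5 at 24 h (log2 -2.8 ± 0.17 SE, 24 h minus 4 h, adjusted p = 0.000314). Its 2 other probe sets fell too, one with a log2 difference of -2.77 and one, with both 24 h arrays at the floor, from 182.5 and 338 to 18.4 and 33.9. Slc7a2, the liver's carrier of arginine and other cationic amino acids, read 759.6 and 789.8 at 4 h and 202 and 174 at 24 h, with sham between at 418 and 314 (log2 -2.05 ± 0.19 SE, adjusted p = 0.00156).

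Slc16a6, through which ketone bodies leave the hepatocyte, read 371 and 331 at 4 h and was below the floor at 24 h (24.0 and 16.6), at least 9.62-fold lower (adjusted p = 0.00462). Slc16a6 passed the filter on low signal through the 4 h arrays alone. The taurine carrier Slc6a6 fell from 349 and 291 to 117.5 and 121 and the glycine carrier Slc6a9 rose from 339.8 and 279 to 885 and 602. The mitochondrial carriers Slc25a30 and Slc25a23 were called at 1.52 and -1.45, and the phosphate carrier Slc34a1 at 1.79 on another probe set. That Slc34a1 probe set passed the filter on low signal only with the 24 h arrays. Slc6a6 (adjusted p up to 0.107) was no longer called without any one of the 4 arrays compared. Slc6a9 (adjusted p up to 0.139) lost the call without either 4 h array or 24 h array 1.

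Several of the largest differences belonged to genes of no list. Krt18, a keratin of the hepatocyte cytoskeleton, was bright and rose on both probe sets, from 1577 and 1480.3 to 6273 and 7175 on the first (log2 2.13 ± 0.18 SE, adjusted p = 0.0012) and by 2.11 on the second. Tuba4a, an alpha tubulin, was below the floor at 4 h (26.5 and 25.3) and read 441 and 506 at 24 h, at least 13-fold higher (adjusted p = 0.000814). Apart from the 24 h arrays, Tuba4a exceeded the array median on a single sham array. It passed the filter on low signal only with the 24 h arrays, so its adjusted p is no independent support. Ppil3, a prolyl isomerase of the spliceosome, rose from 60.1 and 53.9 to 507 and 369 (log2 2.93 ± 0.32 SE). Ppil3 passed the filter on low signal through the 24 h arrays alone.

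Fam111a, a protease active in DNA replication, was low in 1 and below the floor in the other 4 h array (30.1 and 53.0) and read 395 and 339.6 at 24 h (log2 3.06 ± 0.38 SE, adjusted p = 0.00553). Prkd3, a protein kinase D, rose from 94.0 and 12.2 to 372 and 373, again with 1 of the 4 h arrays below the floor. Il5, the eosinophil growth factor, sat at the floor at 4 h (36.4 and 36.5) and read 172.5 and 132 at 24 h. Its 1 h arrays read as high (171 and 188) and the sham and 8 h arrays were at or close to the floor. Cntn5, a neuronal adhesion protein, was below the floor at 4 h and rose at least 3.91-fold, to 121.5 and 167. It passed the filter on low signal only with the 24 h arrays. Cntn5 (adjusted p up to 0.126) was no longer called without any one of the 4 arrays compared. Prkd3 (adjusted p up to 0.0655) lost the call without either 24 h array.

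On the falling side, Polg2, the accessory subunit of mitochondrial DNA polymerase, read 497 and 519.5 at 4 h and 54.5 and 43.8 at 24 h, with sham between at 134 and 109.7 (log2 -3.38 ± 0.2 SE, adjusted p = 0.000314). H19, an imprinted RNA that codes for no protein and the single call of 24 genes of cell growth, read 278 and 307.5 at 4 h and was below the floor at 24 h (31.6 and 27.7), at least 8.03-fold lower (adjusted p = 0.00132). Myc, a transcription factor of cell growth, read lower and missed the threshold on its brighter probe set (-1.65, adjusted p = 0.052), while the dimmer one fell by 2.62 (adjusted p = 0.00617). Top2a, a topoisomerase of dividing cells, was called at -1.6 on another probe set than its brightest. Mapkapk2, a kinase downstream of p38, fell from 685 and 802 to 142 and 79.1 (log2 -2.81 ± 0.62 SE, adjusted p = 0.0475). Mapkapk2 (adjusted p up to 0.214) was no longer called without any one of the 4 arrays compared, or without either 1 h array or either 8 h array.

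Besides Dusp6 above, 5 genes were named for a call of this size while their other tested probe sets were not called. Etfdh, which passes electrons from fat and amino acid oxidation to ubiquinone, read 768 and 594 at 4 h and 13.4 and 15.2 at 24 h, at least 18.6-fold lower, on one probe set. The 2 others, both brighter, differed by 0.21 and -0.44 and were not called. Psmd1, a proteasome cap subunit, rose at least 5.21-fold on one probe set, below the floor at 4 h, and differed by 0.11 to 0.29 on the 3 others. The called Psmd1 probe set passed the filter on low signal only with the 24 h arrays. Pnoc, the precursor of the peptide nociceptin, rose by 2.55 on one and differed by -0.06 and -0.14 on 2 brighter ones. Psmd1 (adjusted p up to 0.152) was no longer called without any one of the 4 arrays compared, or without either 1 h array. Pnoc (adjusted p up to 0.102) lost the call without any one of the 4 arrays compared.

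Nap1l1, a histone chaperone, rose by 2.83 on one and differed by 0.21 on the other. Gtf2ird1, a transcription factor, fell by 3.18 on one and differed by -1.14 with overlapping arrays on the other (adjusted p = 0.553). The called Gtf2ird1 probe set passed the filter on low signal only with the 4 h arrays. Nap1l1 (adjusted p up to 0.108) and Gtf2ird1 (adjusted p up to 0.0847) were no longer called without any one of the 4 arrays compared.

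**Figure D4:**
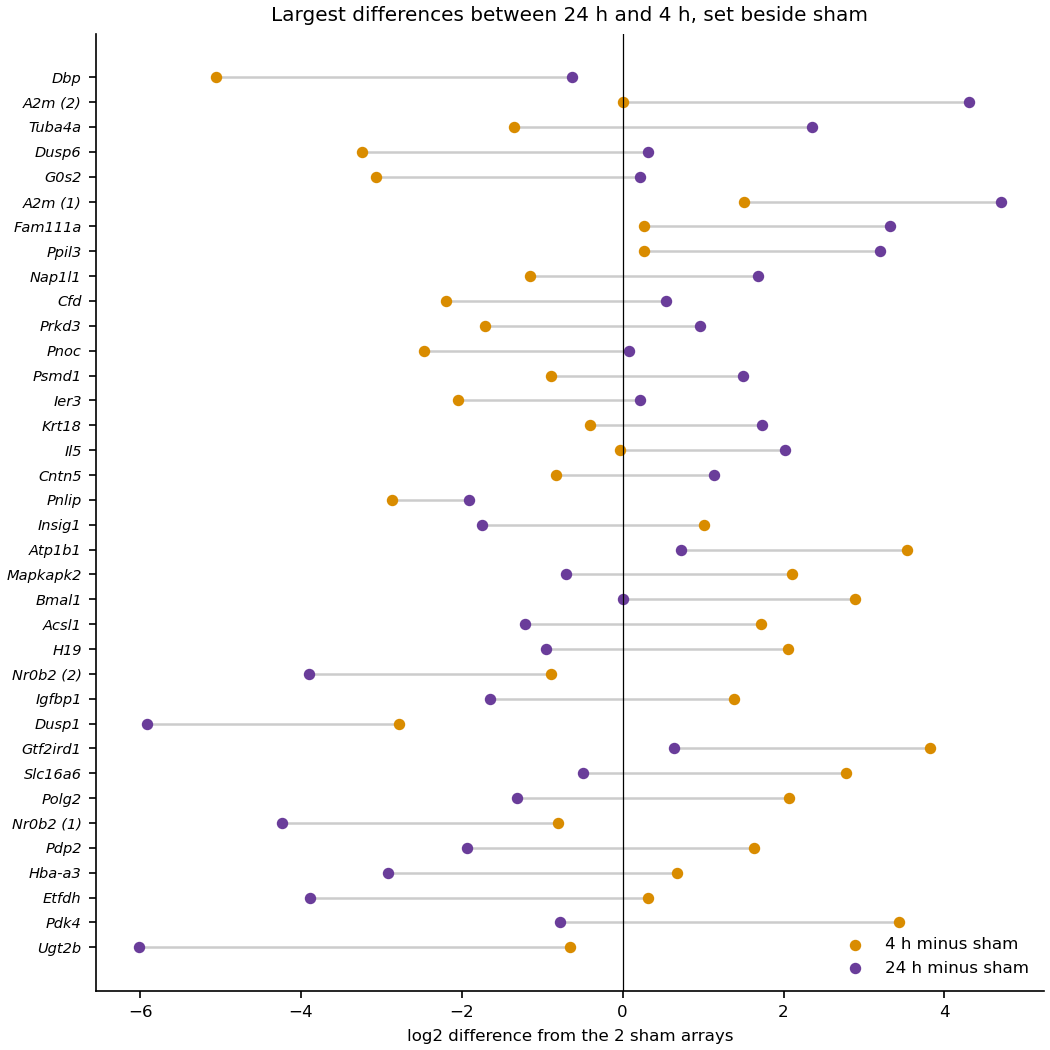
For 36 named probe sets, the log2 difference from sham at 4 h (orange) and at 24 h (purple) on the floored scale. Shown are the named genes with the largest called differences each way and arrays apart, and calls against a group at the floor. The latter include smaller differences between 24 h and 4 h, such as Pnlip at 0.96, so larger calls can be missing. Both differences from sham use the same 2 sham arrays, and numbers in brackets tell probe sets of one gene apart. Dbp, Dusp6, G0s2 and Cfd lie below sham at 4 h and near it at 24 h, while Dusp1 and Ugt2b lie farthest below sham at 24 h.

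The liver label was checked on marker genes: all 12 hepatocyte markers on the array, albumin and Ttr among them, were well above the floor on all 4 arrays, and their summed intensity was 311587 and 379873 at 4 h and 384905 and 392602 at 24 h. One of the 12, Cyp2c11, was called (8.3%, against 5.21% of all genes). In whole tissue, fewer cells of a type and less RNA per cell cannot be told apart. The 9 markers of Kupffer cells and other phagocytes summed to 5993 and 6366 at 4 h and 5287 and 5301 at 24 h. None of the 8 tested was called, and 6 had the 24 h arrays below the 4 h arrays, against 793 of all 3148 genes. The part of Kupffer cells and other phagocytes in the results above was not tested. C1qb, a complement subunit that macrophages make, was nearest at 1210.2 and 1508.5 against 922 and 866 (adjusted p = 0.134).

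Of 6 erythroid markers 1 was called (16.7%, against 5.21% of all genes). This was the alpha globin Hba-a3, which fell from 987 and 721 to 132 and 34.9 (log2 -3.61 ± 0.54 SE, adjusted p = 0.0118). The brighter beta globin Hbb read 24569 and 27476 at 4 h and 26528 and 26543 at 24 h. The erythroid sum was 39866 and 44446 at 4 h and 40750 and 44400 at 24 h. Neutrophil markers were dim, with Mmp9, Itgam and Mmp8 below the floor on all 4 arrays and a sum of 380 and 470 at 4 h and 463 and 322 at 24 h. None of the 9 lymphocyte or 11 stellate, endothelial and bile duct markers tested was called, their medians being -0.04 and -0.14. The stellate, endothelial and bile duct sum was 3976 and 4244 at 4 h and 2940 and 3407 at 24 h, and the part of these cells was not tested either. Hba-a3 (adjusted p up to 0.076) was no longer called without either 4 h array.

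Pancreatic acinar markers, 24 on the array, summed to 3069 and 3029 at 4 h and 3020 and 3679 at 24 h, but to 11544 and 11757 on the sham arrays, and their part in the values against sham was not tested. None of the 22 tested was called between 24 h and 4 h on its brightest probe set. Pnlip, pancreatic lipase, was called on a dimmer one that was below the floor at 4 h (32.6 and 7.5) and read 62.5 and 80.2 at 24 h, while its brightest differed by 0.01. No gene of iron handling (9 tested), antigen presentation (18) or the carboxylesterases (5) was called. Pnlip (adjusted p up to 0.105) was no longer called without either 4 h array or 24 h array 2.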

How the data were processed

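The deposited values are linear intensities per probe set, scaled by the authors so that every array has nearly the same trimmed mean, as the values themselves show. The labels name no scanner software, and aligner, build and annotation are not given in the sources used here. Control probe sets were left out, a choice made after seeing the data, and 31 of the 59 would have passed the filter. A floor of 36.4, the median over arrays of the 25th percentile, replaced lower values before log2 was taken. A probe set was tested where it exceeded its own array's median on at least 2 of the 10 arrays. Bmal1, Slc16a6, Ppil3 and the called probe sets of Nap1l1, Il1r1 and Igf1r are among those that passed only through the time at which they were high. Tuba4a, Cntn5 and the called probe sets of Slc34a1, Gtf2ird1 and Psmd1 exceeded the median on a single array outside that time. They too would not have passed without it. The adjusted p-values of all these probe sets are no independent support. Limma 3.58.1 in R 4.3.3 fitted 5 group means over 10 arrays (5 residual and 2.1 prior degrees of freedom), and p-values were adjusted by Benjamini-Hochberg over all probe sets tested, with calls at 0.05. The fit was checked on simulated data.

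Gene symbols come from the platform's annotation. Gene lists use 1 probe set per gene, the one with the highest mean. The members, lists and tests were chosen with earlier results of these data known. Named genes are the 12 largest called differences each way with arrays apart, up to 6 calls each way against a group at the floor, and up to 5 called members of each list by smallest p (the 2 of smallest p where fewer than 2 were called). Other tested probe sets are given above for part of these genes, and names beyond this were chosen after their values were seen. Of those not given above, Dnaja1 (0.8), Hspa5 (0.75), Rdh16 (0.86), Cyp2j3 (-0.82), Nfkbia (-2.34) and Scd (-0.88) were not called on another probe set. Msmo1 (1.63), Sds (-1.7), Zfp36 (-1.7), Cyp2c11 (1.13) and Mbl2 (-1.33) were called on another, in the same direction. A further probe set of Sds (-1.56) and a further one of Cyp2c11 (0.76) were not called. Where both arrays of a group were at the floor, a fold is a lower bound.

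Whether replicate numbers pair the arrays was checked: between groups the correlation of the replicate differences was 0.012 to 0.17, not above 0.1 for every pair of groups, and no pairing was used. The alternatives were quantile normalization, other floors and filters, an intensity trend with robust variance, a replicate block, fewer arrays, plain probe set designs, each array left out, and, chosen after seeing the data, control probe sets kept and scaling to the spike-ins. Array signals carry no read depth, and the number of arrays limits the precision. Motifs were searched in RefSeq's GRCr8 windows.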

Additional observations from a re-analysis of the deposited data

Results flagged for a closer look

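For 10 probe sets the 4 h and 24 h livers differed from sham in opposite directions, each difference being called and the difference between the times being called as well. Both differences use the same sham arrays, so the values are given side by side. Igfbp1 differed from sham by 1.39 at 4 h and -1.65 at 24 h, a log2 difference of -3.04 between the times (limma adjusted p = 0.000254). Polg2 stood at 2.07 and -1.31 (-3.38 between the times), Insig1 at 1.01 and -1.75 (-2.76), Slc7a2 at 1.1 and -0.95 (-2.05) and Cebpb at 1.02 and -0.7 (-1.72). Klf9 did so on both probe sets, at 1.06 and -1.46 on one (-2.52) and 0.98 and -0.81 on the other (-1.79).

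The reverse order held for Sult1e1, at -1.01 at 4 h and 0.91 at 24 h, with a log2 difference of 1.92 between the times. It also held for 2 probe sets that carry several gene symbols and are therefore not named. One read 1165 and 1280.4 at 4 h and 10421 and 11309 at 24 h, against 2455.5 and 2475 in sham (3.15 between the times). The other read 439 and 578 at 4 h and 7639.7 and 9735 at 24 h, against 1673 and 1912 in sham (4.1 between the times).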

How the results depend on the processing

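The count of 301 calls stayed within 1.5 times under quantile normalization (303), both other floors (287 and 416), both other filters, an intensity trend (451), the 8 burn arrays alone (253), no 1 h arrays (231) and control probe sets kept (302). The higher calls rose to 181 without a filter and to 195 with the intensity trend. The 4 arrays alone, with 2 residual degrees of freedom, gave 71 calls (30 higher, 41 lower), 69 of them shared. Plain probe set designs, with fewer probe sets tested, gave 178 (70 higher, 108 lower). Spike-in scaling gave 932 (39 higher, 893 lower). With 1 array left out, calls ranged from 120 to 258, higher ones from 38 to 104 and lower ones from 61 to 159, the lone array of a group being assumed to vary like the others. The replicate block, whose numbers did not pair the arrays, gave 323 calls (121 higher, 202 lower).

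Among the probe sets named by the rule, signs turned under spike-in scaling for 9, none of them called: Ces1e (-0.26), Cox5a (-0.25), Fgb (-0.04), Ireb2 (-0.21), Ndufa3 (-0.19), Pdia4 (-0.12), Psmb5 (-0.1), RT1-Da (-0.2) and Rpl23 (-0.07). Pnlip went to -0.0 with the floor at the arrays' 50th percentile, above most of its values. Of 87 named calls, 32 held under every alternative that tested them. Without 1 array, calls on probe sets named after their values were seen were not followed. The causes of these changes were not tested, apart from those in the settings themselves, and probe sets near the floor carry little signal over background.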
